A study of Homo sapiens with 6 samples.

Results

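Both arrays labelled replicate 3 were compared with both arrays labelled replicate 1, within a series of 6 arrays of SH-SY5Y cells. The members were taken from the sample titles alone, 4 of the 6 arrays, each pair made up of 1 anti-miR-137 and 1 negative control array. The comparison asks how the cells of one replicate number differed from those of another, with the treatment held as an additive term, and not what the treatment did. Of 49495 probe sets, 45278 carried 1 gene symbol, and 12639 genes were tested after probe sets under the 40th percentile of mean signal (a log2 value of 5.69) were left out and each gene was represented by its brightest probe set.

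SH-SY5Y is an established line from a human neuroblastoma of sympathetic neuronal character. All cells were grown in DMEM/F12 with 10% serum and transfected 24 hours after seeding with 15 pM of an inhibitor of miR-137, a brain-enriched microRNA, or of Anti-miR Negative Control #1, both with Lipofectamine RNAiMAX. Total RNA was isolated 72 hours later, and 100 ng were amplified and hybridised to 1-colour oligonucleotide arrays. The series was designed to find mRNAs that respond to knock-down of miR-137. The labels give the replicate number and no statement of what it stands for, so separate cultures, passages, RNA isolations, labelling reactions and hybridisations cannot be told apart here. P-values here rest on how the anti-miR-137 minus control difference varied across the replicate numbers, part of which may be technical. Each number is 1 unit, so they do not measure how far repeated runs would differ. Precision is limited by how few arrays there are.

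A dividing cell line alternates between growth, DNA replication and mitosis, and the mRNAs of each stage rise and fall in blocks. Genes for replication (G1/S) are controlled largely by E2F factors, and genes for mitosis (G2/M) largely by the MuvB complex with B-MYB and FOXM1, which acts through a short promoter element called the cell cycle genes homology region (CHR). Neuroblastoma lines hold cells of a noradrenergic, neuron-like state and of a mesenchymal, substrate-adherent state that makes more matrix. Neurofilaments and microtubule-associated proteins build the neurites of the first, and vimentin, collagens and integrins mark the second.

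Replicate 3 arrays held higher mRNA values for cell division and lower values for extracellular matrix genes than replicate 1 arrays. With treatment as an additive term, limma called 1040 of 12639 genes (8.23%) at an adjusted p under 0.05, 555 (4.39%) higher and 485 (3.84%) lower in replicate 3. This count rests on all 4 arrays together. It was 3 without the anti-miR-137 array of replicate 1, 2 without the control array of replicate 1 and 0 without either array of replicate 3, fits that leave 1 array for that number and 1 residual degree of freedom. It was also 0 with the RNA integrity number as a covariate. As these numbers fall over the arrays, that fit's difference is exactly the one in the control arrays, with 1 residual degree of freedom. It therefore cannot show what RNA integrity adds to the differences. The count was 169 without the filter on dim probe sets (18244 genes), and 3 of 45278 (0.00663%) when every probe set with 1 symbol was tested on its own. At an unadjusted p under 0.05, 3586 genes passed with all arrays, and 2052 to 2884 with any 1 of those 4 arrays left out. All 1040 called genes had the same sign in the anti-miR-137 arrays and in the control arrays. They also kept their direction without each of the 4 arrays. Kept direction with the covariate is no further outcome, since its difference is the one in the control arrays. Leaving out the filter does not change a called gene's probe set or difference. The genes were chosen on these same arrays, so kept direction is a description and not a check. In what follows, a gene called higher or lower is one of these 1040, with the dependence just given.

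The differences were mostly small. The median size among called genes was 0.42 log2 units, 342 of them differed by at least 0.5 and 14 by at least 1, 7 in each direction. Over all tested genes the median difference was -0.012 with 5th and 95th percentiles of -0.32 and 0.33. The contrast of anti-miR-137 with control from the same fit called 0 genes, with 815 at an unadjusted p under 0.05. Its median absolute difference was 0.0487, against 0.116 between replicates 3 and 1. The first averages 3 arrays a side and the second 2, so noise alone would make the second somewhat larger. Arrays of one number differed from each other by a root mean square of 0.128 to 0.163 over the tested genes, and arrays of replicates 1 and 3 by 0.215 to 0.239.

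The anti-miR-137 pair and the control pair share no array and gave similar differences. Across genes, which are not independent replicates, the replicate 3 minus replicate 1 difference in one pair correlated with that in the other at a Pearson r of 0.69 and a Spearman rho of 0.63, and 73.1% of genes had the same sign. Of 202 genes at least 0.5 log2 units higher in the anti-miR-137 pair, 193 (95.5%) were also higher in the control pair, by a median of 0.55. Of 223 genes at least 0.5 lower there, 214 (96.0%) were also lower in the control pair, by a median of -0.49. The values of the 2 numbers did not overlap for 1039 of the 1040 called genes and for 60.8% of all tested genes. With 2 arrays against 2, a two-sided exact permutation test of a single gene cannot go below p = 0.333.

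**Figure D1:**
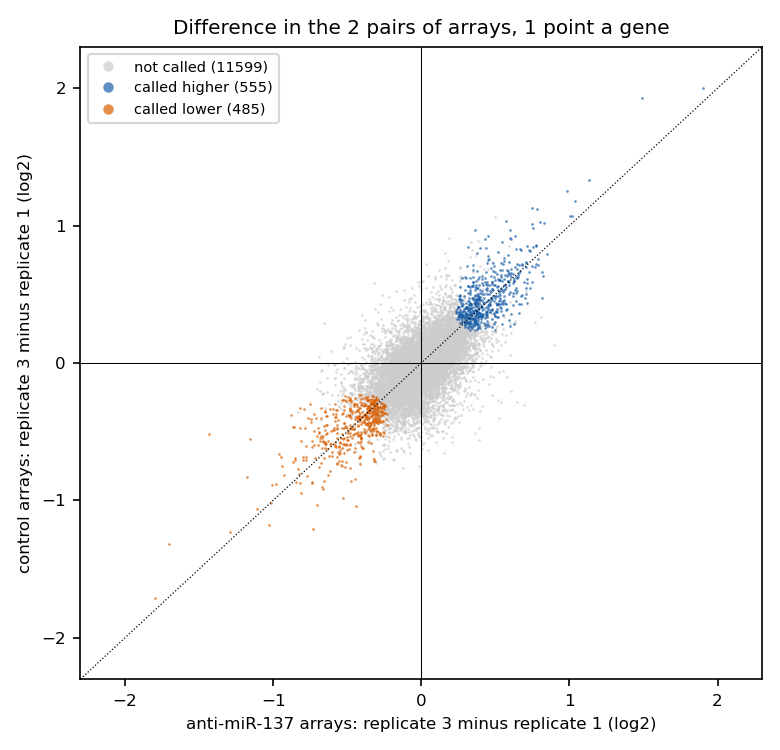
Each point is 1 of 12639 genes, placed by its replicate 3 minus replicate 1 log2 difference in the anti-miR-137 arrays (horizontal) and in the control arrays (vertical). The 555 genes called higher and the 485 called lower lie along the dotted line of equal difference, and the other 11599 genes form the cloud around 0.

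Control probe sets on the arrays also moved between the numbers. All 24 probe sets for the poly-A spike-in RNAs, which are added before labelling, were higher in replicate 3, by 0.16 to 0.52 log2 units. The 18 probe sets for hybridisation spike-ins, which are added after labelling, differed by -0.052 to 0.14. Background probe sets with 17 or more G and C bases were lower in replicate 3 in 9 of 9 cases, by 0.12 to 0.39, and the 12 with fewer than 15 had a median difference of -0.0034. The 3 control probe sets for *ACTB* were higher by 0.25 to 0.38 and those for *GAPDH* by 0.038 to 0.052. The 3′ minus 5′ difference of *ACTB*, a sign of RNA length after amplification, was 1.86 and 1.79 in replicate 1 and 1.68 and 1.69 in replicate 3, anti-miR-137 first. RNA integrity numbers were 9.5 and 9.7 in replicate 1 and 9.7 in both replicate 3 samples. The part of these shifts in any gene's difference was not tested.

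**Figure D2:**
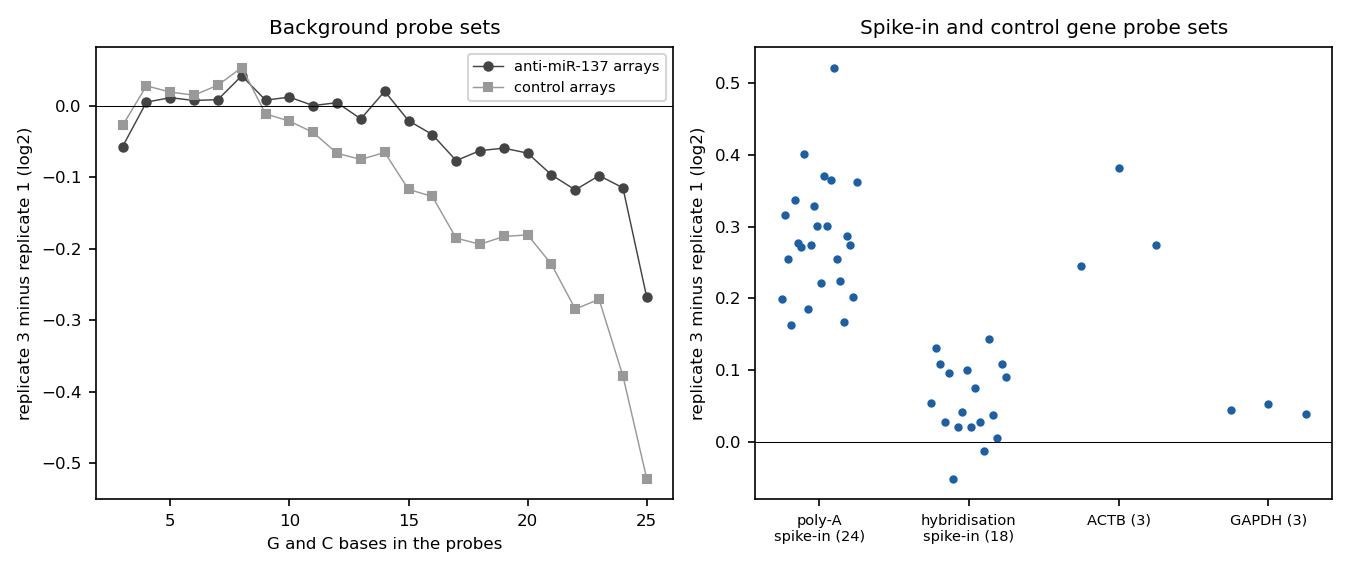
The left panel plots the replicate 3 minus replicate 1 log2 difference of 23 background probe sets against the number of G and C bases in their probes, separately for the anti-miR-137 and control arrays. Both lines fall below 0 from 15 G and C bases on. The right panel shows the same difference, averaged over both treatments, for 24 poly-A spike-in, 18 hybridisation spike-in, 3 *ACTB* and 3 *GAPDH* probe sets, with all 24 poly-A probe sets above 0.

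The cells carried markers of sympathetic neuroblastoma in every array. Over the 6 arrays *HAND2* measured 13.94 to 14.03 and *GATA2* 13.35 to 13.46, sympathetic transcription factors, and the dopamine beta-hydroxylase gene *DBH* measured 12.50 to 12.87. Of 13 neuroblastoma markers tested, 1 was called between replicates 3 and 1, *GAP43*, which was higher (0.42). The catecholamine enzyme gene *TH* (-0.24), the granin gene *CHGB* (-0.27) and the transcription factor gene *MYCN* (-0.30) were not called. Markers of other cells ranged widely in signal. The leukocyte genes *PTPRC* (3.54 to 3.91) and *LYZ* (3.50 to 3.89) and the epithelial cadherin gene *CDH1* (4.08 to 4.30) were dim. The haemoglobin gene *HBB* measured 7.30 to 7.68, the endothelial gene *PECAM1* 6.13 to 6.37, the claudin gene *CLDN4* 7.11 to 7.58 and the keratin gene *KRT14* 6.26 to 6.52. These values come from the brightest probe set of each gene. Other probe sets were dimmer, at 3.66 to 4.09 and 5.88 to 6.30 for *HBB* and 3.29 to 3.64 for *PECAM1*. Those of *CLDN4* measured 4.76 to 5.04 and 5.57 to 5.82. The source of the signal in the brighter probe sets was not tested.

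Promoters of replication and mitosis genes are printed first, because these genes made up the greatest share of called members of any list and their known promoter elements can be read in the sequence. Shown are those of the 3 members with the smallest p in each list, 300 bases each, most of them before the start, taken from RefSeq (GRCh38.p14), 5′ to 3′ on the gene's strand. *FAM83D*, the sixth by that rule, has no entry. Capitals mark every match to the E2F motifs GCGGGAA or GCGCGAA, or to the CHR motif TTTGAA, on either strand. The G1/S genes are *UHRF1*, a reader of hemimethylated DNA (chr19:4909251-4909550, plus strand), and *GINS3* (chr16:58392221-58392520, plus strand) and *GINS2* (chr16:85688905-85689204, minus strand), subunits of the replicative helicase. The G2/M genes are *NDC80*, a kinetochore protein (chr18:2571307-2571606, plus strand), and *KIF4A*, a chromosome-associated kinesin (chrX:70289854-70290153, plus strand).
UHRF1: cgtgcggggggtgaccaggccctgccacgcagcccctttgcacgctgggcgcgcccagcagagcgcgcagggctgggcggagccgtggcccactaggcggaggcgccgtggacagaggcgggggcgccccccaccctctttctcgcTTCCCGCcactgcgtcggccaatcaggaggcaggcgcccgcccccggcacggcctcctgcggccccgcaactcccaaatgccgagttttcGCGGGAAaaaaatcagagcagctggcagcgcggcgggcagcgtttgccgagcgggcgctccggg
GINS3: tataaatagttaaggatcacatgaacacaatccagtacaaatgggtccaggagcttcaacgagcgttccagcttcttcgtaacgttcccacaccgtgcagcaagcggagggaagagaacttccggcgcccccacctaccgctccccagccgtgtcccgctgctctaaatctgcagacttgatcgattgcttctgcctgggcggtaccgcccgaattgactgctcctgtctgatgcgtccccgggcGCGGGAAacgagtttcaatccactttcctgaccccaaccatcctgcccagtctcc
GINS2: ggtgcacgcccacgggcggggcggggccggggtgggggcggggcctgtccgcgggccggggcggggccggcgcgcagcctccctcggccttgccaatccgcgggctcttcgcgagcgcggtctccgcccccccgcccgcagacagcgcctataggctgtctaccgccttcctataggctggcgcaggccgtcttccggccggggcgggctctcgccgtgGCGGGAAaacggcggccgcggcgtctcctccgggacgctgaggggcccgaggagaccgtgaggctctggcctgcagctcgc
NDC80: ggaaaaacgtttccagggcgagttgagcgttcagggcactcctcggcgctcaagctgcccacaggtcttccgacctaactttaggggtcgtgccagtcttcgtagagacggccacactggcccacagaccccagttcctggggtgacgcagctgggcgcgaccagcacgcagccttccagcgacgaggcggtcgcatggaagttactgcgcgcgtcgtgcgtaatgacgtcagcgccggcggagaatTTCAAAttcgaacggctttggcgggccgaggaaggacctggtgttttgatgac
KIF4A: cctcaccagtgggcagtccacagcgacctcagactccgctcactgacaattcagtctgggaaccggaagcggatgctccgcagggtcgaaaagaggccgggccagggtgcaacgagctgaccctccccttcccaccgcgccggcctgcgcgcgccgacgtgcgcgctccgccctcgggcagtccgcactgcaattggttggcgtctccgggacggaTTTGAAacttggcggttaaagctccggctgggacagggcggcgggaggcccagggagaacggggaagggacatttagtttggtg
The capitals in the first 3 are E2F motifs and those in the last 2 are CHR motifs. Of 39 tested G1/S genes with a promoter entry, 59.0% held an E2F motif and 2.56% a CHR motif. Of 48 tested G2/M genes, 16.7% held an E2F motif and 64.6% a CHR motif. The shares among all tested genes with an entry (10328 of 12639) were 13.6% and 9.73%, and among all 27305 promoters of this length 8.60% and 15.4%. Genes called higher in replicate 3 held an E2F motif in 20.7% and a CHR motif in 20.5% of 469 promoters, and those outside both cell cycle lists in 18.0% and 17.5% of 399. Genes called lower held them in 9.27% and 9.77% of 399. The CCAAT box, another element common in mitotic promoters, was in 48.2% of promoters of genes called higher, 28.3% of those called lower and 36.4% of all tested. A match describes the letters only and is neither a bound site nor a cause.

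Replication genes were higher in replicate 3 as a block. Of 46 tested genes of the G1/S and DNA replication list, from 48 listed, 34 were called higher and 0 lower, against 4.39% higher among all genes, and all 46 had positive differences with a median of 0.45 log2 units. *CDC6*, which loads the replicative helicase onto origins, had the greatest difference. It measured 9.79 and 9.52 in replicate 1, 10.08 and 10.07 in replicate 2, and 10.54 and 10.53 in replicate 3, anti-miR-137 first here and below, a difference of 0.88 (SE 0.086, adjusted p = 0.015). Every replicate 3 value of *CDC6* lay above every other array, and replicate 2 lay between. *UHRF1* measured 9.78 and 9.65 in replicate 1, 10.17 and 10.19 in replicate 2, and 10.51 and 10.48 in replicate 3, a difference of 0.78 (SE 0.066, adjusted p = 0.015), in the same order of numbers. *GINS2* measured 9.27 and 9.10 in replicate 1, 9.47 and 9.40 in replicate 2, and 9.93 and 9.81 in replicate 3, a difference of 0.69 (SE 0.063, adjusted p = 0.015), and *GINS3* differed by 0.75.

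The called members covered several steps of replication. Origin licensing factors were *ORC1* (0.56), *ORC6* (0.58), *CDT1* (0.75) and the helicase subunits *MCM2* (0.63), *MCM6* (0.55), *MCM4* (0.50) and *MCM3* (0.41). Helicase activation was represented by *CDC45* (0.59), *MCM10* (0.60) and *GINS4* (0.43). Nucleotide supply genes were *RRM2* (0.78), *TK1* (0.72), *TYMS* (0.40) and *RRM1* (0.38). Of the fork machinery, the sliding clamp *PCNA* differed by 0.50, the flap nuclease *FEN1* by 0.63, and clamp loader subunits by 0.30 to 0.47. The transcription factor genes *E2F2* (0.39) and *E2F8* (0.52) and the cyclin gene *CCNE2* (0.58) were also called higher. These well-known members were picked for naming after their values were seen.

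Mitotic genes showed the same pattern. Of 58 tested members of the G2/M list, from 59 listed, 49 were called higher and 0 lower, and all 58 had positive differences with a median of 0.43. *NCAPH*, a condensin subunit, had the greatest difference (0.70). *NDC80* measured 9.75 and 9.63 in replicate 1, 9.98 and 9.96 in replicate 2, and 10.28 and 10.26 in replicate 3, a difference of 0.58 (SE 0.063, adjusted p = 0.016). *KIF4A* measured 8.55 and 8.44 in replicate 1, 8.82 and 8.85 in replicate 2, and 9.11 and 9.08 in replicate 3, a difference of 0.60 (SE 0.066, adjusted p = 0.016), and *FAM83D*, a spindle protein, differed by 0.61. For *NDC80* and *KIF4A* neither replicate 3 value overlapped any value of the other numbers. *FOXM1*, the transcription factor of mitotic genes named above, measured 7.82 and 7.60 in replicate 1, 8.11 and 8.15 in replicate 2, and 8.67 and 8.40 in replicate 3, a difference of 0.82 (SE 0.090, adjusted p = 0.016).

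Members from several stages of mitosis were among those called. Entry into mitosis was represented by the kinase gene *CDK1* (0.31) and its cyclins *CCNA2* (0.45), *CCNB1* (0.47) and *CCNB2* (0.37). Spindle kinases and motors were *AURKA* (0.42), *TPX2* (0.58), *KIF11* (0.53) and *KIF23* (0.48). Checkpoint genes were *TTK* (0.51), *BUB1* (0.40) and *BUB1B* (0.42), and *CDC20*, the activator of the anaphase-promoting complex, differed by 0.54. *MKI67*, the proliferation marker Ki-67, differed by 0.43. These members too were picked after their values were seen.

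Both lists placed the arrays in the same order of numbers. The tested G1/S genes deviated from their own 6-array means by an average of -0.18 and -0.26 in replicate 1, -0.018 and -0.043 in replicate 2, and 0.27 and 0.23 in replicate 3. The G2/M genes deviated by -0.18 and -0.22 in replicate 1, -0.013 and -0.026 in replicate 2, and 0.23 and 0.22 in replicate 3. In bulk RNA, more dividing cells and more of these mRNAs per dividing cell cannot be told apart. The median differences of the lists lay between 0.42 and 0.48 for G1/S and between 0.40 and 0.46 for G2/M over 15 alternatives of filter, scaling, probe set, covariate and left-out array. Those of the 15 that leave out replicate 2 arrays cannot move a list median. With the covariate, a list median is that of the control arrays. Counts of calls were far less stable: without the filter on dim probe sets, 15 of 47 G1/S and 8 of 58 G2/M genes were called higher. Both lists together supplied 83 of the 555 genes called higher (15.0%).

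**Figure D3:**
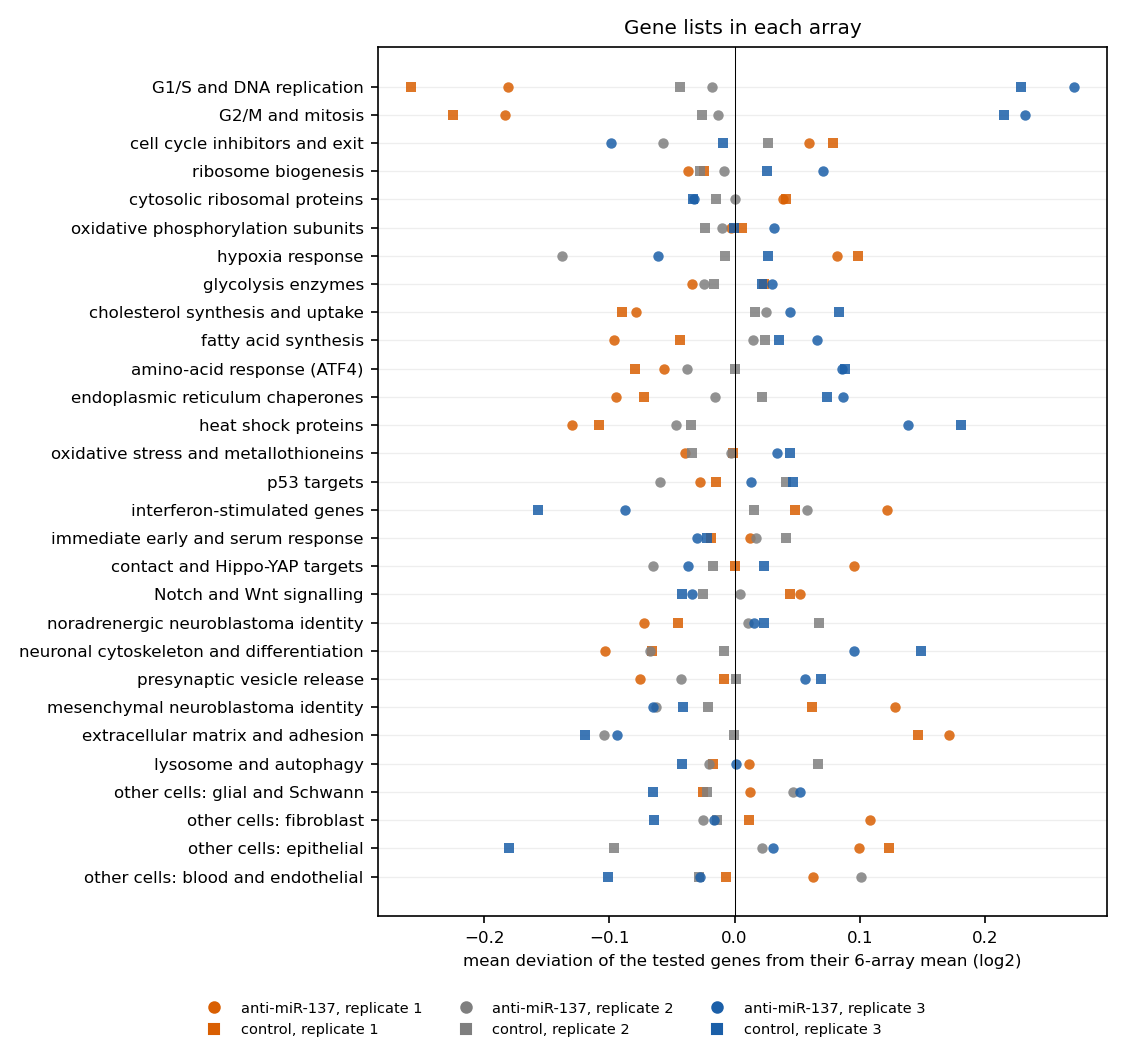
Each point is 1 array, placed by the mean deviation of the tested genes of a list from their own means over 6 arrays, in log2 units, with colour for the replicate number and shape for the treatment. The G1/S and G2/M lists run from replicate 1 on the left through replicate 2 to replicate 3 on the right, and the extracellular matrix list has its replicate 1 arrays on the right.

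Of 19 tested genes that restrain the cell cycle or mark exit from it, 3 (15.8%) were called lower in replicate 3, against 3.84% of all genes, and 0 higher, with a median of -0.092. *TXNIP*, an arrestin that restrains glucose uptake and growth, measured 12.97 and 13.11 in replicate 1, 12.77 and 12.91 in replicate 2, and 12.47 and 12.48 in replicate 3, a difference of -0.57 (SE 0.067, adjusted p = 0.016). *GADD45G*, a stress-induced growth arrest gene, differed by -0.50, and *CDKN2A*, which encodes p16 and ARF, by -0.38. The 2 other probe sets of *CDKN2A* gave -0.048 and 0.13, and the mean over its kept probe sets was -0.10, which was not called. The list's median turned to 0.012 under 1 of the 15 alternatives.

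Genes of ribosomes and respiration gave few calls, against 8.23% called among all genes. Of 52 cytosolic ribosomal protein genes 0 were called, and 49 had negative differences, with a median of -0.070. *RPL34* had the smallest p among them (-0.24, adjusted p = 0.068). Of 44 ribosome biogenesis genes 1 was called, *TSR1* (0.34), a small-subunit assembly factor, with a list median of 0.065. Of 56 oxidative phosphorylation subunit genes 0 were called, and their median was 0.020. At an unadjusted p under 0.05, 4 ribosomal protein genes were lower and 0 higher, and 4 respiratory subunit genes were higher and 2 lower.

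**Figure D4:**
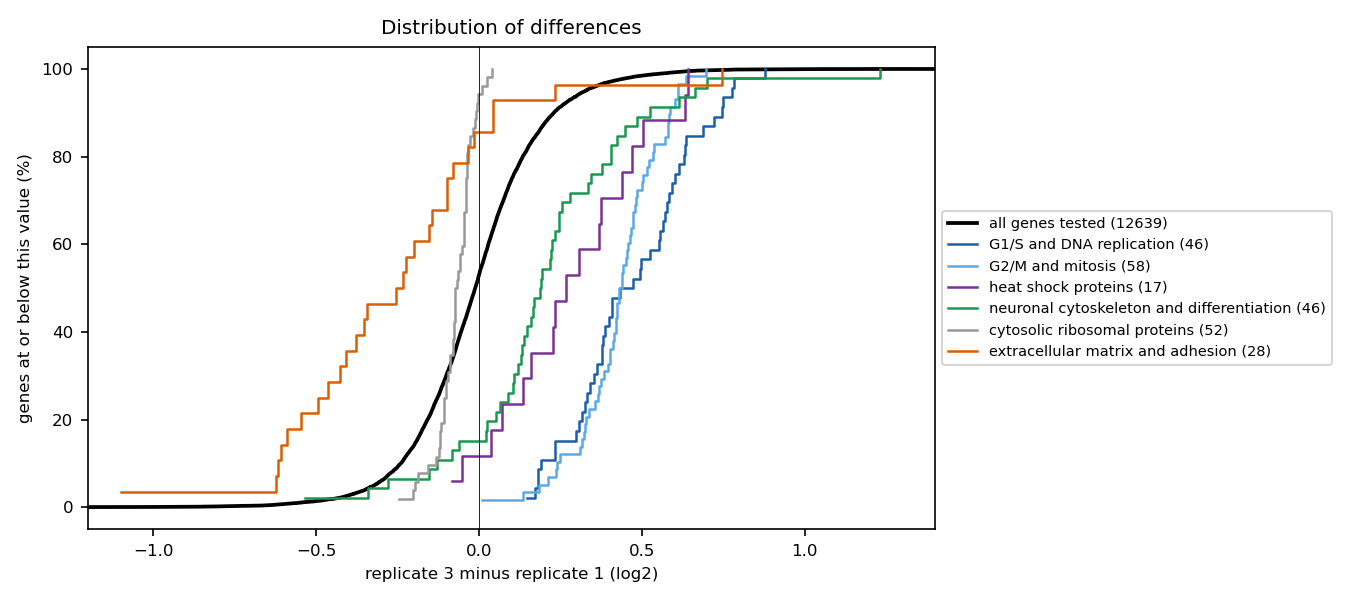
Cumulative distributions of the replicate 3 minus replicate 1 log2 difference for all 12639 tested genes (black) and for the tested members of 6 lists, with the number of genes in brackets. The curves of the 46 G1/S and 58 G2/M genes lie wholly above a difference of 0, the ribosomal protein curve is steep just below 0, and the extracellular matrix curve lies mostly on the negative side.

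Calls among chaperone and biosynthetic genes were mostly higher. Of 17 heat shock genes, 8 (47.1%) were called higher, against 4.39% of all genes, and 0 lower, with a median of 0.27. *HSPA1B*, an inducible HSP70 gene, measured 9.96 and 9.95 in replicate 1, 10.15 and 10.12 in replicate 2, and 10.61 and 10.57 in replicate 3, a difference of 0.64 (SE 0.059, adjusted p = 0.015). Its near-identical copy *HSPA1A* differed by 0.63, and the probe sets of the 2 genes may take signal from each other. The co-chaperone genes *STIP1* (0.50), *DNAJB1* (0.44) and *DNAJA1* (0.31) and the HSP90 gene *HSP90AA1* (0.37) were called as well. Of 22 endoplasmic reticulum chaperone genes, 3 (13.6%) were called higher: *HSPA5*, which encodes BiP (0.47), and *SDF2L1* (0.56) and *MANF* (0.38).

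Of 29 genes of the amino-acid response, 4 (13.8%) were called higher, against 4.39% of all genes, and 0 lower, with a median of 0.17. They were the serine synthesis enzyme *PHGDH* (0.42), the mitochondrial folate enzyme *MTHFD2* (0.36) and the tRNA synthetase genes *AARS1* (0.38) and *WARS1* (0.37). Of 20 cholesterol genes, 3 (15%) were called higher, *ACAT2* (0.50), *EBP* (0.45) and *IDI1* (0.30). *TM7SF2*, a sterol reductase, was called lower (-0.40). The list median was 0.22, and without the filter on dim probe sets 0 of its genes were called. Of 11 fatty acid synthesis genes only the elongase gene *ELOVL6* was called (0.34), 9.09% of that list. *GCLM*, the modifier subunit of glutathione synthesis, was the 1 gene called of 18 oxidative stress genes (0.45). Of 23 p53 targets only *TP53I3*, a p53-induced quinone oxidoreductase gene, was called (0.74). The shares of these 2 lists, 5.56% and 4.35%, were near the 4.39% called higher among all genes.

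Neuronal structure genes were called higher more often than lower. Of 46 tested, 14 (30.4%) were called higher and 2 (4.35%) lower, against 4.39% and 3.84% of all genes, with a median of 0.19. *NEFM*, which encodes one of the neurofilaments, the intermediate filaments of axons, had the greatest difference. It measured 8.39 and 8.39 in replicate 1, 8.30 and 8.91 in replicate 2, and 9.53 and 9.72 in replicate 3, a difference of 1.23 (SE 0.14, adjusted p = 0.016). Its replicate 3 values stood apart from all others, and 1 replicate 2 value lay below both of replicate 1. *NEFL* measured 11.51 and 11.66 in replicate 1, 11.63 and 11.80 in replicate 2, and 12.23 and 12.27 in replicate 3, a difference of 0.66 (SE 0.065, adjusted p = 0.015). *NEFH* differed by 0.61 and the neurofilament partner *INA* by 0.53.

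Other called members act in neurite growth. Microtubule regulators were *STMN4* (0.70), *STMN3* (0.34), *MAPT* (0.34) and *MAP2* (0.28). The growth cone protein gene *GAP43* differed by 0.42, the adhesion gene *L1CAM* by 0.49 and the neuronal RNA-binding protein genes *ELAVL4* and *ELAVL3* by 0.40 and 0.38. Collapsin response mediators divided: *CRMP1* (0.41) and *DPYSL5* (0.45) were called higher, and *DPYSL3* (-0.53) was called lower together with the adhesion gene *NRCAM* (-0.34). Of 30 vesicle release genes 2 (6.67%) were called higher, against 4.39% of all genes, and 0 lower. They were *RAB3C* (0.49) and the SNARE gene *SNAP25* (0.30). Of 30 noradrenergic identity genes 4 (13.3%) were called higher and 0 lower, with a median of 0.044. These were *TBX3* (0.92), the granin genes *SCG3* (0.42) and *SCG2* (0.37), and the vesicular monoamine transporter gene *SLC18A1* (0.30).

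Genes of the matrix and adhesion list were called almost only lower in replicate 3. Of 28 tested genes, from 35 listed, 12 were called lower, against 3.84% of all genes, and 1 higher, with a median of -0.24. Basement membrane components made up several of them. *COL4A1*, a collagen IV chain, measured 9.46 and 9.64 in replicate 1, 8.95 and 9.03 in replicate 2, and 8.95 and 8.92 in replicate 3, a difference of -0.62 (SE 0.073, adjusted p = 0.016). *NID1*, a nidogen, measured 10.87 and 10.87 in replicate 1, 10.49 and 10.55 in replicate 2, and 10.30 and 10.26 in replicate 3, a difference of -0.59 (SE 0.062, adjusted p = 0.016). Replicate 3 had the lowest values of *NID1*, and for *COL4A1* replicates 2 and 3 overlapped and both lay below replicate 1. *COL4A2* (-0.43), *NID2* (-0.55) and *LAMB1* (-0.35) followed.

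Among the other matrix members, the proteoglycan genes *GPC3* (-1.10), *VCAN* (-0.62) and *SDC2* (-0.38), the collagen VI gene *COL6A1* (-0.49), the lysyl oxidase gene *LOXL2* (-0.41), the protease inhibitor gene *TIMP3* (-0.61) and the integrin gene *ITGAV* (-0.46) were called lower. *ITGA1*, another integrin gene, was the 1 called higher (0.75). The list deviated from its 6-array means by 0.17 and 0.15 in replicate 1, -0.10 and -0.00067 in replicate 2, and -0.093 and -0.12 in replicate 3. Replicate 1 was the number that stood apart here, and 1 replicate 2 array lay within the range of replicate 3. The median stayed between -0.41 and -0.18 over 15 alternatives, and without the filter 3 of 35 genes were called lower.

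The mesenchymal neuroblastoma list marks the substrate-adherent state of these lines. Of its 24 tested genes, 4 (16.7%) were called lower, against 3.84% of all genes, and 0 higher, with a median of -0.19. *VIM*, the intermediate filament vimentin, measured 13.69 and 13.70 in replicate 1, 13.47 and 13.49 in replicate 2, and 13.28 and 13.31 in replicate 3, a difference of -0.40 (SE 0.059, adjusted p = 0.022). *YAP1*, the effector of Hippo signalling, differed by -0.65, *IL13RA1* by -0.57 and *TIMP1* by -0.38, while *SNAI2*, a mesenchymal transcription factor, stood at 0.38 (adjusted p = 0.28). Of 7 other probe sets of *YAP1*, only 4 were also lower. Those that were higher were dim, with means of 4.63 to 4.97, under the filter value. Of 13 contact and Hippo-YAP genes, *YAP1*, *AJUBA* (-0.41) and *FSTL1* (-0.33) were called lower (23.1%) and 0 higher. *FSTL1* stood at 0.33 on its other probe set, a dim one with a mean of 5.12. The median of these 13 was 0.082, and 7 of them had positive differences. Fibroblast markers were present at the same time. Of 9 tested, *DCN*, a small proteoglycan, was the 1 called lower (11.1%, against 3.84% of all genes). Its difference was -0.63, and the list median was -0.20. The list was divided in sign, 4 positive and 5 negative, with *LUM* (0.29), *THY1* (0.19) and *ACTA2* (0.11) on the positive side and not called. The summed log2 level of these 9 ran from 74.5 to 75.4 in replicate 1 and from 73.8 to 74.2 in replicate 3. *PDGFRA* (-0.20) and *COL3A1* (-0.22) were bright in every array and not called. The part of such cells, or of such a state of SH-SY5Y cells, in the matrix result was not tested.

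Of 18 interferon-stimulated genes, 4 (22.2%) were called lower, against 3.84% of all genes, and 0 higher, with a median of -0.14. *USP18*, a protease that removes ISG15, measured 8.09 and 7.97 in replicate 1, 7.88 and 7.76 in replicate 2, and 6.39 and 6.65 in replicate 3, a difference of -1.51 (SE 0.11, adjusted p = 0.014). Replicate 2 lay close to replicate 1 and only replicate 3 was low, and signal of the near-identical copy *USP41* may be included. *OAS2*, an antiviral RNA sensor, and the interferon-induced genes *IFITM2* and *IFI6* differed by -0.38, -0.32 and -0.32. Of 26 hypoxia genes, *ADM* (-0.69), *NDRG1* (-0.60) and *VEGFA* (-0.40) were called lower (11.5%) and the glucose transporter gene *SLC2A1* higher (0.31). Of 17 glycolysis genes 1 (5.88%) was called, *ALDOC* (-0.34), near the 3.84% called lower among all genes.

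Of 27 immediate early and serum response genes, 2 (7.41%) were called higher and 3 (11.1%) lower, against 4.39% and 3.84% of all genes. *ETV5* and *DUSP5*, targets and brakes of ERK signalling, were higher by 0.37 and 0.39. *PHLDA1* measured 8.29 and 8.27 in replicate 1, 8.18 and 8.02 in replicate 2, and 7.28 and 7.25 in replicate 3, a difference of -1.02 (SE 0.067, adjusted p = 0.013), and *MYC* (-0.39) and *ZFP36* (-0.37), which destabilises mRNAs, were lower too. Of 28 Notch and Wnt genes, 3 (10.7%) were called lower: the R-spondin receptor gene *LGR5* (-0.86), the Notch ligand gene *DLL3* (-0.38) and the Frizzled gene *FZD7* (-0.28). Of 27 lysosome and autophagy genes, *WIPI1* (-0.59), *CTSF* (-0.58) and *HEXA* (-0.28) were called lower (11.1%). The proton pump subunit gene *ATP6V0D1* of the same list was called higher (0.36). The glial, epithelial and blood marker lists had 5, 3 and 3 tested genes and 0 calls.

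The greatest single differences lay largely outside these lists. *NELL2*, a secreted neuronal glycoprotein, measured 6.64 and 6.69 in replicate 1, 8.26 and 8.15 in replicate 2, and 8.54 and 8.70 in replicate 3, a difference of 1.95 (SE 0.081, adjusted p = 0.0033). Only replicate 1 was low, and replicate 2 lay close to replicate 3. *VIP*, which encodes the neuropeptide vasoactive intestinal peptide, measured 7.11 and 6.57 in replicate 1, 7.34 and 7.48 in replicate 2, and 8.60 and 8.50 in replicate 3, a difference of 1.71 (SE 0.16, adjusted p = 0.015). Its replicate 3 values stood above the rest, and the other probe set gave 1.50. *CARTPT*, another neuropeptide precursor gene, measured 8.34 and 8.62 in replicate 1, 9.20 and 9.76 in replicate 2, and 9.33 and 9.88 in replicate 3, a difference of 1.12 (SE 0.088, adjusted p = 0.015). For *CARTPT* replicate 2 overlapped with replicate 3.

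Of the other genes with the greatest increases, *UTRN* (1.11) encodes the dystrophin relative utrophin, *FZD5* (1.04) a Wnt receptor, and *CELF2* (1.04) a neuronal splicing regulator. *RIMS4* (0.95) belongs to the active zone of synapses and *CLSTN2* (0.94) to the calsyntenin adhesion proteins. The replicate 1 means of *UTRN* (5.27), *CLSTN2* (5.46) and *CELF2* (5.65) were under the filter value of 5.69. These genes passed the filter only through their brighter arrays. *FAM111B* (0.91), a protease-like gene, gave 0.99 to 1.01 on 2 other probe sets, and *TNFRSF19* (0.87) is a receptor of the TNF family. Second probe sets did not always follow the first. The other probe set of *RIMS4* gave -0.36, that of *UTRN* 0.063, and only 2 of 4 others of *FZD5*, 5 of 9 of *CELF2*, 3 of 5 of *TBX3* and 1 of 2 of *TNFRSF19* had the same direction. The other probe sets of *UTRN* and *CELF2* were all under the filter value. So were the opposed ones of *TBX3* (means of 3.71 and 5.08) and *TNFRSF19* (4.53), while those of *RIMS4* and *FZD5* were above it.

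Among decreases, *GRIP1*, a scaffold that anchors AMPA receptors, measured 8.57 and 8.62 in replicate 1, 8.49 and 8.44 in replicate 2, and 6.77 and 6.91 in replicate 3, a difference of -1.75 (SE 0.070, adjusted p = 0.0033). Replicate 2 lay close to replicate 1, and the replicate 3 arrays alone were low. *EXD3*, an exonuclease-domain gene, measured 9.77 and 9.89 in replicate 1, 9.34 and 9.27 in replicate 2, and 8.49 and 8.66 in replicate 3, a difference of -1.26 (SE 0.078, adjusted p = 0.013), with replicate 2 between the others. *GPC3*, a heparan sulfate proteoglycan, measured 8.19 and 8.11 in replicate 1, 7.77 and 7.67 in replicate 2, and 7.16 and 6.93 in replicate 3, a difference of -1.10 (SE 0.068, adjusted p = 0.013), and its 2 other probe sets gave -1.02 and -0.97.

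*TGFBR2* (-1.09), a TGF-beta receptor, and *GDF10* (-1.004), a ligand of that family, were lower, as were *LRP4* (-0.87), the agrin receptor, and *NPPA* (-0.87), the precursor of atrial natriuretic peptide. *FAT1* (-0.95), a giant cadherin, *CABP7* (-0.93), a calcium-binding protein gene, *NEUROG2* (-0.88), a proneural transcription factor, *PDK4* (-0.97), which restrains pyruvate dehydrogenase, and the noncoding *FER1L4* (-0.97) completed the 14. The second probe set of *TGFBR2* gave -0.051 and that of *PDK4* 0.035. Of the 28 genes named for their size, 18 had a second probe set, and in 7 of these at least 1 went the other way. Among genes named from the lists, 1 or more other probe sets also went the other way for *UHRF1* (-0.21), *COL4A1* (0.16), *NDRG1* (0.052), *OAS2* (0.091), *AJUBA* (0.14), *FZD7* (0.071) and *ATP6V0D1* (-0.0068), as the most opposed value. Apart from that of *ATP6V0D1*, these most opposed probe sets had means under the filter value. Averaging the kept probe sets lowered the difference of *NELL2* to 1.19, *FZD5* to 0.32, *RIMS4* to 0.30, *CLSTN2* to 0.55, *FOXM1* to 0.50 and *TSR1* to 0.21. The same averaging left *EXD3* at -0.72 and *TGFBR2* at -0.57. Without probe sets whose suffix marks probes that can match more than 1 transcript, *TNFRSF19* stood at 0.33, *FZD7* at -0.16 and *ATP6V0D1* at 0.13. *PDK4* was -0.60 without the anti-miR-137 array of replicate 3. With the RNA integrity covariate it was -0.51, its difference in the control arrays. *FER1L4* was -0.63 without the control array of replicate 3.

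**Figure D5:**
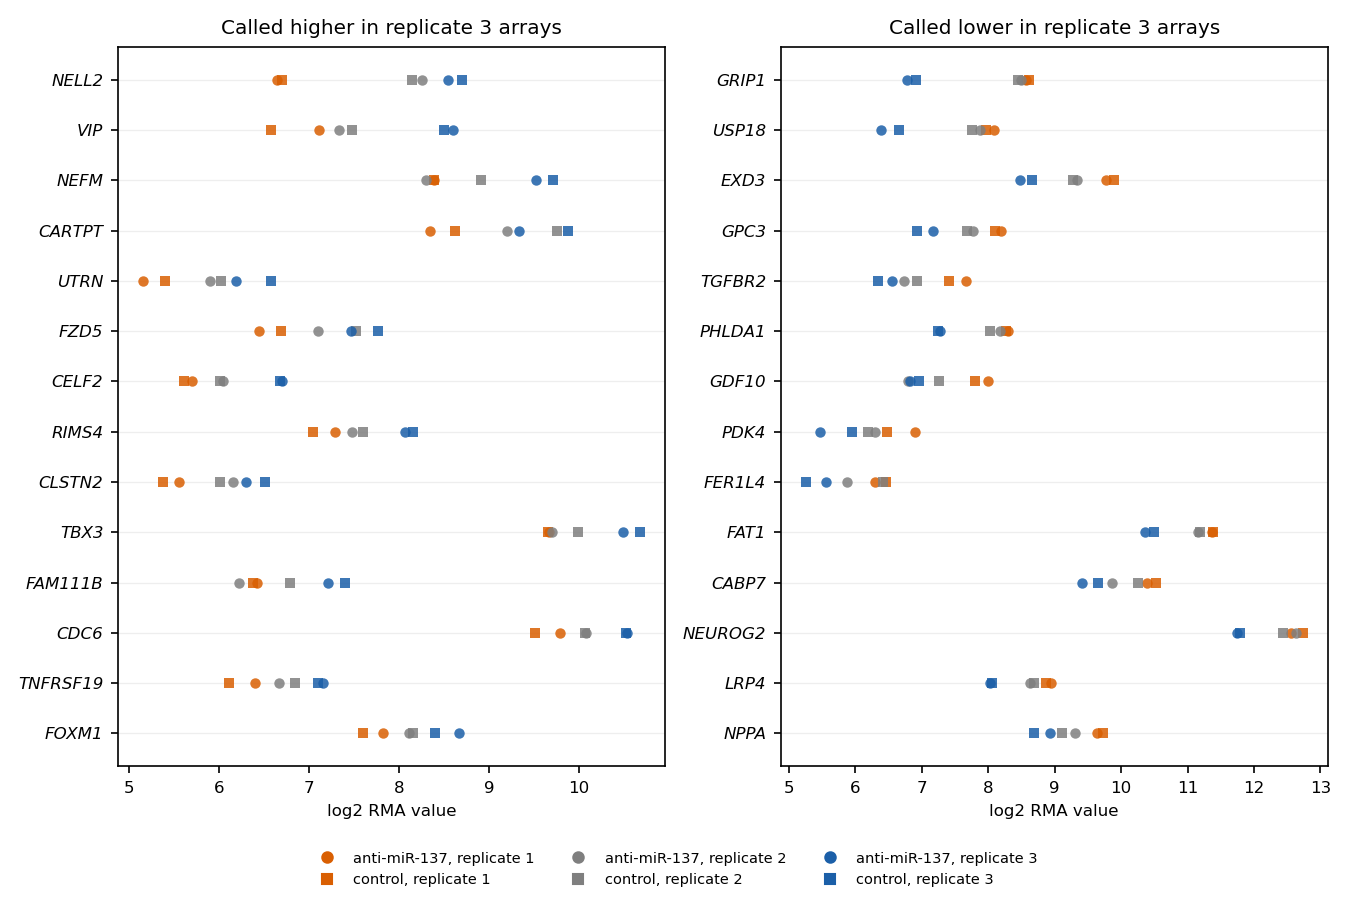
Log2 RMA values in each of the 6 arrays for the 14 genes called higher (left) and the 14 called lower (right) with the greatest differences, with colour for the replicate number and shape for the treatment. For all 28 genes the replicate 1 and replicate 3 arrays do not overlap, and the place of the replicate 2 arrays changes from gene to gene.

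Replicate 2 arrays gave no part of the difference itself, but entered the spread behind the calls, the filter and the choice of probe set. The mean of replicate 2 fell between the means of replicates 1 and 3 for 6569 of the 12639 tested genes (52.0%). It did so for 952 of the 1040 called genes, which were chosen for a large gap between those means, so that this count is a description. It was nearer to replicate 1 for 583 and nearer to replicate 3 for 457. Contrasts with replicate 2 called few genes: 4 against replicate 1 (0.0316%), which were *ADM*, *CYBRD1*, *TSPAN8* and *NELL2*, and 1 against replicate 3 (0.00791%), which was *GRIP1*. *CYBRD1*, a ferric reductase gene, measured 7.22 and 7.35 in replicate 1, 6.29 and 6.37 in replicate 2, and 6.49 and 6.49 in replicate 3, so that replicates 2 and 3 were both below replicate 1.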

How the data were processed

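The 6 arrays each measured total RNA of 1 SH-SY5Y sample in 1 colour. The log2 values used are those deposited, made with RMA in R 3.0.1 per the submitters' processing notes. RMA equalises the arrays' distributions, which hides any shift common to all transcripts. Probe sets with 1 symbol were kept at or above the 40th percentile of mean, and the brightest stood for its gene. The model in limma 3.58.1 (R 4.3.3; lmFit and eBayes, two-sided) held replicate number and treatment over all 6 arrays, with 2 residual degrees of freedom and replicate 2 entering only the spread. P-values were adjusted by Benjamini-Hochberg over 12639 genes, with a threshold of 0.05, and SE is the model's. The rule named the 14 called genes with the greatest difference in each direction that agreed in sign in both pairs of arrays, the 3 smallest p of each of 25 lists, and the 2 brightest of each of 4 other-cell lists. The members and lists were chosen with earlier results of these data known. Numbers in brackets after a gene are log2 differences, replicate 3 minus replicate 1. Alternatives are given in the closing section.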

Additional observations from a re-analysis of the deposited data

Results flagged for a closer look

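Some lists and 1 gene had replicate 3 minus replicate 1 differences of opposite sign in the anti-miR-137 pair and in the control pair, and in each case the difference between the pairs was not tested. The median over the contact and Hippo-YAP genes was -0.12 log2 units in the anti-miR-137 pair and 0.12 in the control pair. For the oxidative phosphorylation subunits these medians were 0.033 and -0.0047, and for the glycolysis enzymes 0.056 and -0.0054. The glial and Schwann cell markers had medians of 0.088 and -0.023. *S100B*, a glial calcium-binding protein gene, stood at 0.088 and -0.0016. None of these lists except the Hippo-YAP and glycolysis lists held a called gene. No group held 4 arrays, so single arrays were not tested as outliers.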

How the results depend on the processing

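Against 1040 called genes (555 higher, 485 lower), counts were 169 (91, 78) without the filter, 1657 (925, 732) with a filter at the 60th percentile, 2305 (1293, 1012) with a trended prior, 2064 (1048, 1016) at an adjusted p under 0.1 and 342 (176, 166) with at least 0.5 log2 units. They were 3 (1, 2) over every 1-symbol probe set and 0 (0, 0) with the RNA integrity covariate. In that covariate fit the difference is the one in the control arrays, and 1011 of the 1040 had an unadjusted p under 0.05. Testing the 27514 kept probe sets singly gave 1498 (965, 533), of which 64.4% were higher. Leaving out 1 array gave 0 to 1441 (0 to 747 higher, 0 to 694 lower); the upper ends came without a replicate 2 array, and 0 to 3 without an array of replicate 1 or 3. The share called higher was 53.4%, and 44.3%, 61.4% and 46.1% with quantile normalization, median centring and cyclic loess on top. With the same fit the treatment contrast called 0 genes (815 at an unadjusted p under 0.05), and 0 with no replicate block (335). Called genes named by the rule, 81 in number, kept their direction under every alternative in which they were measured, and none of the 106 named values reversed a call. These genes were chosen on the same arrays, so this describes them and is not a check. The trended prior, no treatment term, no filter and leaving out replicate 2 arrays cannot change the difference of a named gene. List medians kept their sign under 15 alternatives for 20 of 29 lists. The cause of these changes was not tested. Depth is not defined for arrays.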

Other observations

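Split by mean signal, genes of the lowest 20% had a median replicate 3 minus replicate 1 difference of -0.076 log2 units, and 62 of them were called higher and 81 lower. For the highest 20% it was 0.019, and 130 genes were called higher and 70 lower. Chosen in the control pair instead, 267 genes were at least 0.5 log2 units higher, and 259 of them (97.0%) were also higher in the anti-miR-137 pair, by a median of 0.48. Of 257 genes at least 0.5 lower in the control pair, 237 (92.2%) had the same sign in the other pair, with a median of -0.44. Genes at the upper end of both contrasts included division genes and neuronal structure genes at once: *CDC6* stood at 0.75 in the anti-miR-137 pair and 1.01 in the control pair, and *NEFM* at 1.13 and 1.33. Of the 1040 called genes, 83.5% belonged to none of the 29 lists.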
